A study of Saccharomyces cerevisiae YPS1009 with 40 samples.

Results

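The 7 genes described here supply ubiquitin or return it to the free pool in budding yeast. The rule that chose them names each gene and uses no measured value: UBI4 (YLL039C), RPS31 (YLR167W), RPL40A (YIL148W) and RPL40B (YKR094C), which encode ubiquitin, and UBA1 (YKL210W), UBP6 (YFR010W) and DOA4 (YDR069C), which encode enzymes that activate or recover it. They are 7 of the 6714 genes in the count table, and all 7 passed the filter on low counts. RNA was sequenced from 5 haploid strains of the North American oak-soil isolate YPS1009, grown in shake flasks of rich medium (YPD) at 30 °C. YPS1009_euploid carried the normal chromosome set, and YPS1009_Chr4, YPS1009_Chr12, YPS1009_Chr14 and YPS1009_Chr15 each carried an extra copy of the chromosome in the name. Each strain was sampled in log phase, after 3 generations, and at day 1, day 3 and day 7 (24, 72 and 168 hours, counted from the start of culture in the labels and from the log-phase harvest in the study's methods), with 2 libraries in each of the 20 groups. At the HO locus, YPS1009_euploid and YPS1009_Chr12 carried a hygromycin-marked deletion, while the other 3 strains carried another ho allele, so for those 3 the allele and the extra chromosome cannot be told apart. Each karyotype was represented by a single strain, the 4 aneuploid strains were compared with the same euploid libraries, and Schizosaccharomyces pombe cells were added to every sample.

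Ubiquitin is a small protein that cells attach to other proteins, often as a mark for destruction by the proteasome. It is never made as a free protein. RPS31, RPL40A and RPL40B encode fusions of ubiquitin to a ribosomal protein, whereas UBI4 encodes a head-to-tail chain of ubiquitin copies and is known as the gene that yeast uses under stress and in stationary phase. Uba1, the activating enzyme (E1), starts every conjugation. The deubiquitinases Ubp6, bound to the proteasome, and Doa4, at the endosome, remove ubiquitin from proteins on their way to destruction so that it can be used again.

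In the reference annotation (S288c, R64), UBI4 lies on chrXII:64062-65207, on the minus strand, as a single coding exon with 5 ubiquitin units. RPS31 lies on chrXII:498947-499405 (plus strand). RPL40A lies on chrIX:68708-69528 (plus strand) and RPL40B on chrXI:617996-618750 (minus strand), each with 2 coding exons. UBA1 lies on chrXI:39163-42237 (plus strand), UBP6 on chrVI:165067-166566 (plus strand) and DOA4 on chrIV:584939-587719 (minus strand). UBI4 and RPS31 were therefore present in an extra copy in YPS1009_Chr12 and DOA4 in YPS1009_Chr4. Every ubiquitin unit of the 4 ubiquitin genes was identical at 76 of 76 residues. RPL40A and RPL40B encode the same 128 residues and share 363 of 387 coding bases (93.8%), and the repeats of UBI4 are 80.3% to 90.4% identical to each other in bases. Of the 50-base windows of UBI4, 81.8% occur once in the genome, against 83.4% for each RPL40 gene and 100% for RPS31, so counts of RPL40A and RPL40B taken singly, and to a like degree those of UBI4, are uncertain.

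The sequences upstream of the start codons are shown because the 7 genes did not change in the same direction. The 500 bases upstream of each of 6019 start codons were searched on both strands for 4 motifs: the stress response element CCCCT, the proteasome-associated element GGTGGCAAA, the Rap1 motif ACCCANACA of ribosomal protein genes, and a heat shock element of 3 alternating GAA and TTC triplets 2 bases apart. These letters occurred in 34%, 1.64%, 3.07% and 1.48% of all promoters. UBI4 held the stress response element 252 bases before its start codon, the proteasome-associated element at 160 bases and overlapping heat shock elements at 384 and 379 bases. The capitals mark the matches, which on this strand can read as the reverse complement.
UBI4, chrXII:65358-65607, minus strand: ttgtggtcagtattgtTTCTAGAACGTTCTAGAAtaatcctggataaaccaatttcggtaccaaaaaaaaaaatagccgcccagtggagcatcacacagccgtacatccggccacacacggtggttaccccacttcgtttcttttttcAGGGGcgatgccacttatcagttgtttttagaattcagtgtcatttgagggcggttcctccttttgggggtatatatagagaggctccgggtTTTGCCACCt
DOA4, chrIV:588000-588059, minus strand: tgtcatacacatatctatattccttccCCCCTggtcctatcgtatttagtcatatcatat
UBA1, chrXI:39008-39062, plus strand: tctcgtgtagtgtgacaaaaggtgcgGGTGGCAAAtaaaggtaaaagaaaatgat
RPL40B, chrXI:618970-619008, minus strand: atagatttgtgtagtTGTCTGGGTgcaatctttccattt
DOA4 held the stress response element at 313 bases, UBA1 the proteasome-associated element at 129 bases and RPL40B the Rap1 motif at 243 bases. None of the 4 motifs was found in the 500 bases upstream of RPL40A, RPS31 or UBP6. The Rap1 letters were present upstream of 44 of 132 RPL and RPS genes (33.3%). These are reference bases, and YPS1009 differs from the reference at single positions.

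Total counts per library ranged from 4182717 to 7036849 in log phase, from 1997415 to 3792145 at day 1, from 1033073 to 2228477 at day 3 and from 725316 to 2324046 at day 7. The labels were checked against the data. In each aneuploid strain the genes of the duplicated chromosome stood above those of the other chromosomes, by a median of 0.892 to 0.982 on the log2 scale in log phase. YPS1009_Chr15 replicate 1 went against its mating type: its log-phase library held 10626 counts of MF(ALPHA)1 and 2331 of STE3, genes of mating type alpha, where replicate 2 held 3 and 3. The same library held 65 counts of STE2, a gene of mating type a, against 6011 in replicate 2. The strain list gives mating type a, and the libraries of that replicate at day 1 showed the same genes (6080 counts of MF(ALPHA)1 against 3), while at day 3 and day 7 these genes did not set the replicates apart. Some results of UBI4 and UBA1 in YPS1009_Chr15 are therefore also given without its replicate 1. Other results of that strain include it. The least alike replicates were those of YPS1009_euploid at day 7, whose chi-square over genes, divided by its degrees of freedom, was 73.08 against 3.13 in the closest pair. Levels are given as counts per 1000000 counts of the library (CPM) after TMM scaling (trimmed mean of M values), which sets each gene against the bulk of the other transcripts in the same library. A gene was called when its adjusted p (edgeR quasi-likelihood test, all 40 libraries in a single fit, Benjamini and Hochberg adjustment over 5864 genes) was under 0.05. Log2 changes carry their standard error (SE), with 2 libraries in each group. The study's methods call the 2 libraries of a group biological duplicates, and the p-values measure the spread between these libraries only. In bulk RNA, fewer cells that express a gene and less of its RNA per cell cannot be told apart.

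The gene that supplied the ubiquitin-coding RNA changed between growth and quiescence. To compare the 4 ubiquitin genes within a library, counts were divided by coding length, the value of UBI4 was multiplied by its 5 units, and the share of UBI4 in the sum was taken. In log-phase euploid cells UBI4 held 0.846% and 0.867% of the ubiquitin units, and RPS31 held 54.8% and 57.3%. At day 1 the euploid share of UBI4 was 62.8% and 69%, at day 3 it was 96% and 93.5%, and at day 7 it was 93.2% and 85.9%. All 10 log-phase libraries lay below all 30 later libraries, so the groups did not overlap. Over the 5 strains the mean rise from log phase was 61.5 percentage points at day 1, 82.5 at day 3 and 86.7 at day 7. Each had a p of 0.000257 in an exact two-sided permutation test within strains, the smallest that this test can give. With each UBI4 transcript counted once in place of 5 units, the rises were 27.3, 61.5 and 64.8 percentage points, with the same p.

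The same shift was seen in every strain but reached different levels. YPS1009_Chr4 held the highest UBI4 shares, with 77.6% and 75% at day 1, 97% and 96.4% at day 3, and 99.3% and 98.9% at day 7. YPS1009_Chr12 held 43.7% and 43.8% at day 1 and 53.2% and 51.8% at day 3, below every library of the other strains at those times, and then 95.2% and 76.1% at day 7. In YPS1009_Chr12 at day 3, RPS31 supplied 33.6% and 32.3% of the units, against 1.8% and 2.36% in YPS1009_euploid. YPS1009_Chr14 gave 60.1% and 58.9%, then 86.9% and 90%, then 81.5% and 84.9%. YPS1009_Chr15 gave 71.7% and 74.3%, then 92.9% and 89%, then 86.6% and 87.5%. In log phase YPS1009_Chr15 had the highest shares, 4.53% and 4.9%, followed by YPS1009_Chr4 (2.35% and 2.84%), YPS1009_Chr14 (1.42% and 1.41%) and YPS1009_Chr12 (1.36% and 1.24%), all above the euploid pair. Between the 8 aneuploid libraries together and the 2 euploid libraries, no difference passed the exact permutation test at any time. That test moves libraries freely between strains, so its p does not measure the spread between strains, and euploid was a single strain. The differences were 1.65 percentage points in log phase (adjusted p = 0.444), −2.8 at day 1, −12.6 at day 3 and −0.793 at day 7 (adjusted p = 0.956 for each of these 3), in a test whose smallest possible p is 0.0222. Adjusted over the 4 times that becomes 0.0889, so a difference at 1 time alone could not pass, although in log phase all 8 aneuploid libraries lay above both euploid ones. A single strain against euploid, 2 libraries against 2, cannot go below 0.33 and was not tested.

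**Figure D1:**
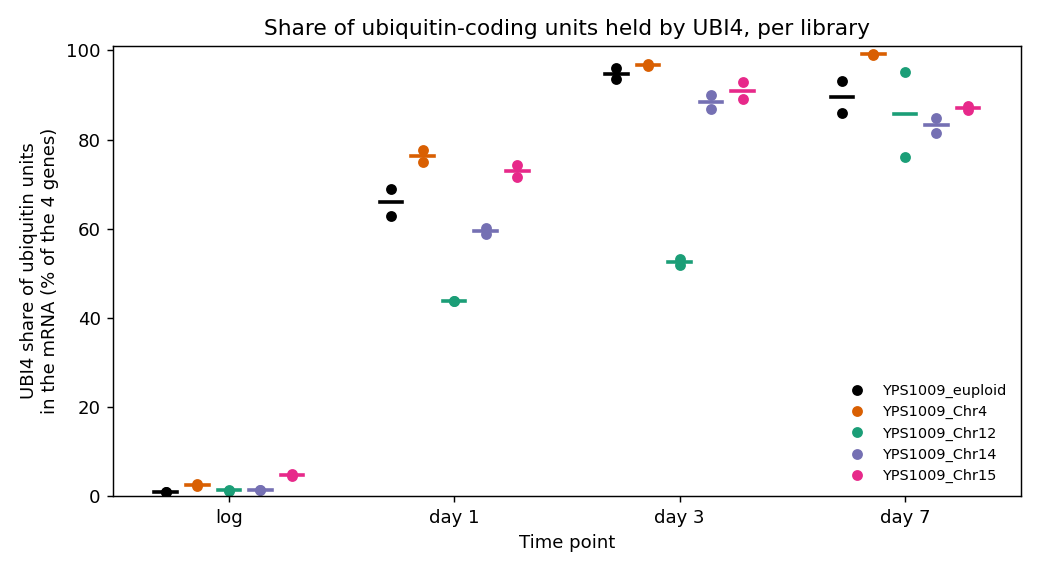
Share of the ubiquitin-coding units of each library held by UBI4 (percent, vertical axis) at each time point (horizontal axis), with 1 point per library, 2 libraries per group, and a bar at their mean. The 10 log-phase libraries lie at or below 4.9%, and at day 3 the YPS1009_Chr12 libraries lie at 53.2% and 51.8%, below those of the other 4 strains.

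Against log phase of the same strain, 94 tests of the 7 genes passed the threshold over 15 comparisons, 32 higher and 62 lower. Over all genes in the same 15 comparisons, 35.4% of tests were called higher and 36.9% lower, so most genes moved and the counts of the 7 genes are read against that. In YPS1009_euploid 6 of the 7 genes were called at day 1 (69.4% of all genes), 7 at day 3 (80.1%) and 7 at day 7 (75.7%). In YPS1009_Chr12 the counts were 5 at day 1 (61.8% of all genes), 6 at day 3 (64.8%) and 6 at day 7 (73.8%). In YPS1009_Chr4 they were 6, 6 and 7, with 62.7%, 75.8% and 75.8% of all genes called. In YPS1009_Chr14 they were 5, 7 and 7, with 67.8%, 77.8% and 77.9% of all genes called, and in YPS1009_Chr15 they were 5, 7 and 7, with 66.2%, 76.4% and 79.3%. What set the genes apart from each other was the direction: relative to the other transcripts, UBI4 and DOA4 rose in all 15 comparisons and RPS31, RPL40A and RPL40B fell in all 15, whereas per cell, as given later, DOA4 rose in 0 and UBI4 fell in 2 of them.

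UBI4, the polyubiquitin gene, was the least abundant ubiquitin gene in log phase and the most abundant in the quiescent euploid culture. Its euploid levels were 34.4 and 36.9 CPM in log phase, 873 and 992 at day 1, 2491 and 1880 at day 3, and 1842 and 825 at day 7. The log-phase libraries lay below all later ones, and the day 7 pair was the most spread. The change from log phase was 4.71 ± 0.39 (SE) on the log2 scale at day 1, 5.94 ± 0.42 at day 3 (61.2-fold) and 5.22 ± 0.40 at day 7, with an adjusted p of at most 1.64e-11 (edgeR). In YPS1009_Chr4 the levels were 64.4 and 75.1 in log phase, 1552 and 1149 at day 1, 5524 and 3642 at day 3, and 11720 and 8081 at day 7. The day 7 levels were the highest of UBI4 in the series on the TMM scale, and the change reached 7.15 ± 0.44 at day 7. The TMM factors of these day 7 libraries, 0.316 and 0.381, were the lowest of all libraries, which raises their scaled CPM. On the scale per cell, described later, UBI4 was highest in YPS1009_Chr4 at day 1 (427.7 and 316.6, against 116.5 and 80.3 at day 7). In YPS1009_Chr12 the levels were 64.3 and 63.8, then 887 and 920, then 1136 and 1068, and at day 7 5653 and 2341. Its log2 changes were 3.82, 4.11 and 5.96, and the day 1 libraries lay near the euploid ones of that day. Without day 7 replicate 1 the day 7 change was 4.53 in YPS1009_euploid and 5.19 in YPS1009_Chr12. YPS1009_Chr14 had 50.6 and 49.8, 837 and 825, 1429 and 1668, and 1116 and 1211, for changes of 4.05, 4.95 and 4.53. YPS1009_Chr15 started highest, at 135 and 141 in log phase, and then had 1092 and 1153, 1504 and 1020, and 1173 and 999. Its log2 changes were 3.02, 3.19 and 2.98, and without replicate 1 they were 2.88, 2.86 and 2.85, still called. At day 3 the order of the mean levels was YPS1009_Chr4, YPS1009_euploid, YPS1009_Chr14, YPS1009_Chr15 and YPS1009_Chr12, and the YPS1009_Chr15 pair overlapped those of YPS1009_Chr14 and YPS1009_Chr12.

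RPS31, which encodes ubiquitin fused to a protein of the small ribosomal subunit, fell as UBI4 rose. Its euploid levels were 4462 and 4883 CPM in log phase, 543 and 474 at day 1, 93.8 and 95.04 at day 3, and 143 and 141 at day 7. No later library overlapped the log-phase pair. The log2 changes were −3.20 ± 0.32, −5.63 ± 0.36 (49.5-fold lower) and −5.04 ± 0.35. YPS1009_Chr12, with an extra copy of the gene, had the highest levels at every time: 6426 and 6942 in log phase, 1526 and 1565 at day 1, 1436 and 1334 at day 3, and 361 and 1036 at day 7. Its changes were −2.11 at day 1, −2.27 at day 3 and −3.25 at day 7, each smaller than in YPS1009_euploid at that time, and the day 7 change was −4.21 without day 7 replicate 2. YPS1009_Chr4 fell from 3206 and 2933 to 447 and 375, 144 and 121, and 85.6 and 53.4, the lowest day 7 levels of any strain. YPS1009_Chr14 fell from 4042 and 4048 to 612 and 659, 239 and 175, and 310 and 266. YPS1009_Chr15 fell from 3277 and 3110 to 436 and 415, 96.5 and 111.6, and 186 and 149.

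RPL40A and RPL40B encode the same protein, ubiquitin fused to a protein of the large ribosomal subunit, and fell together. Euploid RPL40A was at 1829 and 1778 CPM in log phase, 295 and 261 at day 1, 42.3 and 75.9 at day 3, and 69.6 and 59.9 at day 7 (log2 changes −2.70, −4.92 and −4.81). Euploid RPL40B was at 1221 and 1225, 118 and 91.4, 55.7 and 64.9, and 37.1 and 50.2 (−3.54, −4.34 and −4.78). For both genes the log-phase pair lay above every later euploid library. YPS1009_Chr12 again kept more. Its RPL40A levels were 1452 and 1660 in log phase, 414 and 421 at day 1, 301 and 374 at day 3, and 120 and 227 at day 7. Its RPL40B levels were 1034 and 1094, 231 and 248, 177 and 182, and 57.9 and 139 (−4.20 at day 7 without replicate 2, in place of −3.39). Neither gene lies on chromosome XII. In YPS1009_Chr4, RPL40A ended at 19.3 and 32.6 at day 7, below the euploid pair, whereas RPL40B stood at 41.4 and 77.1, which overlapped it. In YPS1009_Chr14 and YPS1009_Chr15 the day 7 levels were 60.4 to 89.4 for RPL40A and 55.6 to 76.5 for RPL40B. All 30 changes of the RPL40 genes from log phase lay between −1.90 and −5.43.

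DOA4, whose product recovers ubiquitin from membrane proteins sent to the vacuole, rose in every strain. Its euploid levels were 26.6 and 24.8 CPM in log phase, 135 and 135 at day 1, 609 and 570 at day 3, and 557 and 191 at day 7. All later euploid libraries lay above the log-phase pair, and the changes were 2.39 ± 0.39, 4.52 ± 0.42 and 3.85 ± 0.41. In YPS1009_Chr4, which has an extra copy of DOA4, the levels were 65.2 and 60.0 in log phase, 197.6 and 199.5 at day 1, 4505 and 3497 at day 3, and 9011 and 10780 at day 7. At day 3 and day 7 these libraries lay above every library of the other strains, and the change from log phase reached 7.30 ± 0.47. YPS1009_Chr12 moved least up to day 3, from 25.7 and 28.2 to 79.0 and 71.0 and then 110 and 87.8, with 762 and 254 at day 7 (1.48, 1.88 and 4.22). The day 7 change was 2.89 and 4.43 in YPS1009_euploid, and 3.24 and 4.82 in YPS1009_Chr12, without replicate 1 or 2 of that day. YPS1009_Chr14 went from 32.7 and 27.8 to 120 and 115, 348 and 387, and 280 and 393 (1.95, 3.60 and 3.47). YPS1009_Chr15 went from 36.7 and 38.7 to 124 and 129, 435 and 257, and 375 and 383 (1.74, 3.19 and 3.33).

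UBA1, the E1 enzyme through which all ubiquitin passes, was called by edgeR in 0 of the 5 day 1 comparisons with log phase and was lower in 4 strains at day 3 and 5 at day 7. Euploid UBA1 was at 481 and 522 CPM in log phase, 684 and 726 at day 1, 150 and 163 at day 3, and 121 and 69.2 at day 7. The day 1 libraries lay above the log-phase pair, but the change of 0.49 ± 0.27 missed the threshold (adjusted p = 0.102, edgeR), and edgeR did not call UBA1 at day 1 in the other 4 strains. In YPS1009_Chr4 its unadjusted p at day 1 was under 0.05 (0.55, adjusted p = 0.0752, edgeR). DESeq2 called UBA1 lower in YPS1009_Chr12 at day 1 (−0.57, adjusted p = 0.00323) and day 3 (−0.72, adjusted p = 0.000169). At day 3 UBA1 fell in YPS1009_euploid (−1.68), YPS1009_Chr4 (−1.41), YPS1009_Chr14 (−1.96) and YPS1009_Chr15 (−0.84), the last not called without replicate 1 (−0.84, adjusted p = 0.0707). YPS1009_Chr12 stayed at 333 and 364 at day 3 against 506 and 496 in log phase, a difference of −0.52 ± 0.27 that edgeR did not call (adjusted p = 0.089). At day 7 UBA1 was lower in all 5 strains, from −1.51 in YPS1009_Chr12 to −2.57 in YPS1009_Chr14. The YPS1009_Chr4 value of −2.48 was −3.55 without day 7 replicate 1.

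UBP6, whose product trims ubiquitin from proteins docked at the proteasome, had the smallest range of the 7 genes. Euploid UBP6 was at 71.6 and 64.8 CPM in log phase, 106 and 132 at day 1, 37.1 and 40.2 at day 3, and 23.2 and 26.6 at day 7. The 4 euploid pairs did not overlap. It rose at day 1 (0.80 ± 0.23) and fell at day 3 (−0.82) and day 7 (−1.43). The day 1 call was lost without euploid day 1 replicate 2 (0.51, adjusted p = 0.122). In YPS1009_Chr4 UBP6 was at 88.9 and 76.5, 143 and 114, 75.98 and 111.9, and 44.2 and 59.3. That day 3 pair spanned the log-phase pair (0.19 ± 0.26, not called). The YPS1009_Chr4 calls at day 1 (0.64) and day 7 (−0.68) each rested on single libraries: they became 0.53 without log-phase replicate 2, 0.46 without day 1 replicate 1, −0.57 without log-phase replicate 1 and −0.52 without day 7 replicate 1, all not called. In YPS1009_Chr12 UBP6 was at 77.7 and 85.2, 63.3 and 58.8, 46.1 and 54.4, and 91.3 and 32.6, so the day 7 pair lay on both sides of log phase. There edgeR did not call UBP6 at day 1 or day 7, whereas DESeq2 called it lower at day 1 (−0.58, adjusted p = 0.00303) and day 7 (−0.79, adjusted p = 0.00174). Its change of −0.70 at day 3 was not called without log-phase replicate 2 (−0.63) or day 3 replicate 1 (−0.58). UBP6 fell in YPS1009_Chr14 (−1.56 at day 3, −1.68 at day 7) and in YPS1009_Chr15 (−1.0 and −1.72).

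**Figure D2:**
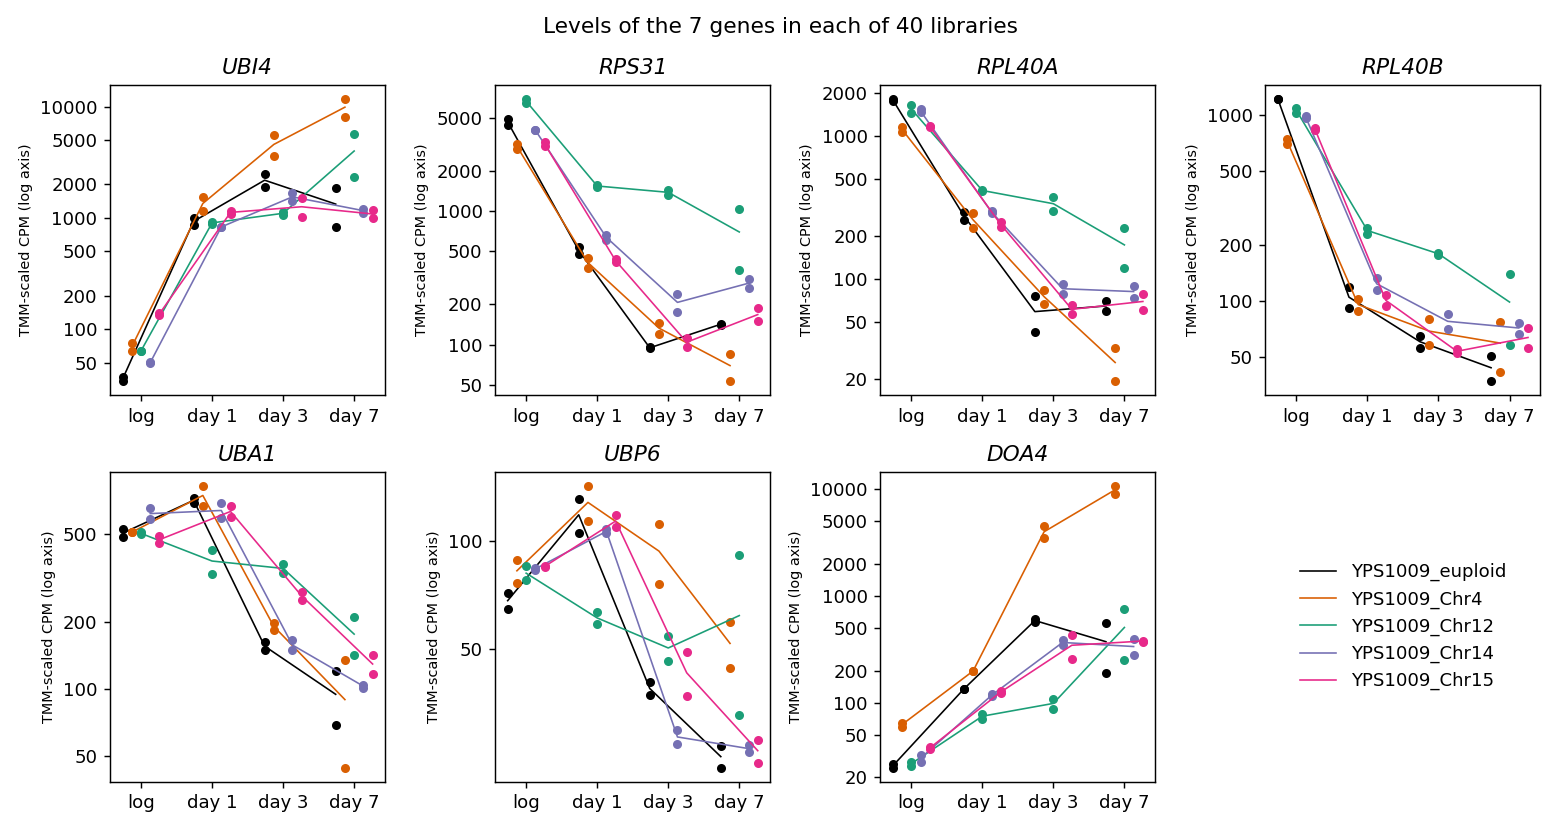
Level of each of the 7 genes in TMM-scaled CPM (log axis) at the 4 time points, with 1 point per library (40 libraries) and lines through the means of each strain. UBI4 and DOA4 climb, reaching 11720 and 10780 in YPS1009_Chr4 at day 7, while RPS31 and both RPL40 genes fall least in YPS1009_Chr12.

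Per kilobase of coding sequence, the order of the euploid mean levels turned over. In log phase it was RPS31 (10180 CPM per kilobase), RPL40A (4660), RPL40B (3160), UBA1 (163), UBP6 (45.5), UBI4 (31.1) and DOA4 (9.24). At day 3 it was UBI4 (1907), DOA4 (212), RPS31 (206), RPL40B (156), RPL40A (153), UBA1 (50.8) and UBP6 (25.8), where the levels of DOA4 and RPS31, and those of RPL40B and RPL40A, were close to each other. YPS1009_Chr12 kept a fusion gene on top at day 3, with RPS31 at 3017, UBI4 at 962, RPL40A at 872 and RPL40B at 464. In YPS1009_Chr4 at day 7 UBI4 (8639) and DOA4 (3558) stood far above RPL40B (153) and RPS31 (151.4).

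All values so far are relative to the other transcripts of the same library, and quiescent yeast cells hold less RNA. A scale per cell was recovered from the spike-in normalized log2 values that the study published for other genes. It shifts every change from log phase by the same amount in a group: by −2.91 at day 1, −5.35 at day 3 and −4.38 at day 7 on the log2 scale in YPS1009_euploid, and by −2.10 to −6.89 over all strains. The shift is common to both replicates, so the spread of the spike-in between replicates is not included. On the scale per cell, 7 tests against log phase were called higher, all of UBI4, and 84 were called lower. Over all genes in the same 15 comparisons, 4.18% of tests were called higher per cell and 89.3% lower. Euploid UBI4 stood above log phase by 1.80 at day 1 (adjusted p = 2.33e-05, edgeR), 0.58 at day 3 (not called) and 0.85 at day 7 (adjusted p = 0.0219). UBI4 was also higher at day 1 in YPS1009_Chr4 (2.17), YPS1009_Chr12 (1.24) and YPS1009_Chr14 (1.35), and at day 3 in YPS1009_Chr12 (0.86) and YPS1009_Chr14 (0.74). In YPS1009_Chr15, by contrast, UBI4 per cell was at −0.05 at day 1 (not called) and lower at day 3 (−1.41) and day 7 (−1.499).

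The rise of DOA4 did not remain on the scale per cell. Its values there ranged from −1.69 in YPS1009_Chr12 at day 7 to 0.41 in YPS1009_Chr4 at day 7, with 7 of 15 called lower, 0 called higher, and the positive values of YPS1009_Chr4 at day 3 (0.12) and day 7 not called. RPS31, RPL40A, RPL40B, UBA1 and UBP6 were lower per cell in all 15 comparisons each. For RPS31 the values ran from −4.69 in YPS1009_Chr12 at day 1 to −12.34 in YPS1009_Chr4 at day 7. In 4 strains the UBI4 values per cell thus lay between 0.04 and 2.17, while those of the fusion genes lay at −4.20 or lower in all 5. The share of UBI4 is a ratio within a library and is the same on both scales.

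**Figure D3:**
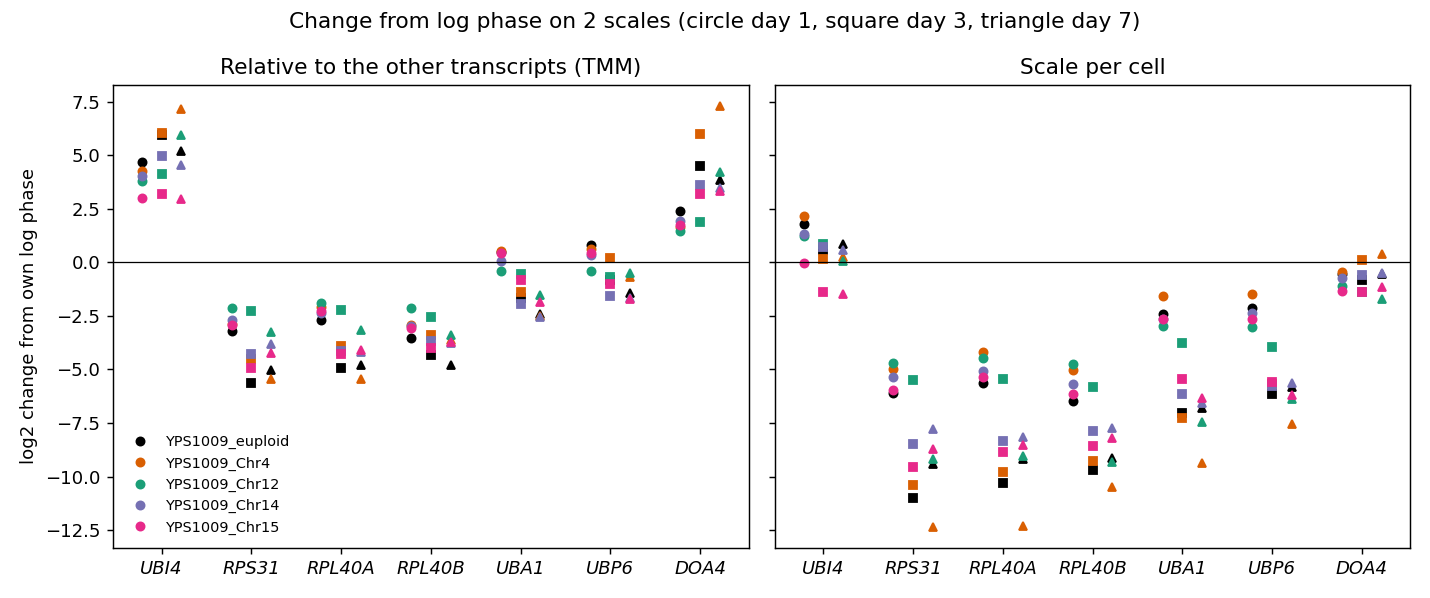
Log2 change of each gene from log phase of its own strain, relative to the other transcripts (left) and per cell (right), with circles for day 1, squares for day 3, triangles for day 7 and a colour for each strain. On the right UBI4 lies between −1.499 and 2.17 and DOA4 between −1.69 and 0.41, and the other 5 genes lie below 0.

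Against YPS1009_euploid at the same time, 29 tests passed over 16 comparisons, 23 higher and 6 lower. Over all genes 4.42% to 38.4% were called higher and 0.273% to 31.8% lower, depending on the comparison. Most of the 29 calls fell in YPS1009_Chr12. In log phase 0 of the 7 genes were called in YPS1009_Chr12 by edgeR (8.13% of all genes), with 1 at an unadjusted p under 0.05 and 0 by DESeq2. At day 1 the count was 4 (31% of all genes), at day 3 it was 6 (69.8%) and at day 7 it was 6 (33.2%). RPS31 was higher by 1.60 ± 0.30 at day 1, 3.87 ± 0.34 at day 3 (14.7-fold, adjusted p = 1.28e-10, edgeR) and 2.31 ± 0.31 at day 7. RPL40A was higher by 2.51 at day 3 and 1.45 at day 7. RPL40B was higher by 1.19, 1.57 and 1.19 at days 1, 3 and 7. The enzymes did not move as a group. UBA1 was lower by −0.91 at day 1 and higher by 1.16 at day 3 and 0.91 at day 7. UBP6 was lower at day 1 (−0.96) and higher at day 7 (1.20). DOA4 was lower at day 3 (−2.58 ± 0.39), when YPS1009_Chr12 held 110 and 87.8 CPM against 609 and 570. Per cell that difference was −0.56 and not called (adjusted p = 0.161, edgeR).

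UBI4 in YPS1009_Chr12 crossed the euploid level. It was at 0.84 in log phase (not called), at −0.99 at day 3 and at 1.58 at day 7. The day 3 value turned to 1.03 per cell and to 0.02 when a gene needed 10 counts or more in each library to be kept, so its direction rests on the scale. Per cell 6 of the 7 genes were called higher in YPS1009_Chr12 at day 3 (78.5% of all genes higher), with RPS31 at 5.89, RPL40A at 4.52, RPL40B at 3.59, UBA1 at 3.18 and UBP6 at 2.39 beside UBI4, since that group was shifted by 2.02 relative to YPS1009_euploid. DOA4 was the gene that lost its call. At day 1, 3 genes were higher per cell (RPS31 1.85, RPL40B 1.44 and RPL40A 0.83) and UBP6 was lower (−0.72), with 32.9% of all genes called. At day 7 the shift was −1.64 and 76.7% of all genes were called per cell, most of them lower. There RPS31 was higher (0.67), DOA4 (−1.19) and UBA1 (−0.73) were lower, and UBP6, RPL40A, RPL40B and UBI4 lay below 0 and were not called. Several calls rested on single libraries. At day 1 UBP6 was not called without euploid day 1 replicate 2 (−0.77) and UBA1 without YPS1009_Chr12 day 1 replicate 2 (−0.74). At day 3 UBI4 was not called without euploid day 3 replicate 1 (−0.77) or YPS1009_Chr12 day 3 replicate 2 (−0.94). At day 7 the calls of UBP6 (0.37), UBA1 (0.61) and UBI4 (0.81) were lost without YPS1009_Chr12 day 7 replicate 1, that of UBA1 also without euploid day 7 replicate 2 (0.53), and that of RPL40B without YPS1009_Chr12 day 7 replicate 2 (0.38). RPS31 was at 1.35 and UBP6 at 1.85 without that last library, and UBI4 at 2.27 without euploid day 7 replicate 1, all still called.

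In YPS1009_Chr4 the ubiquitin-recycling gene DOA4 differed most. In log phase 1 of the 7 genes was called by edgeR (9.65% of all genes), DOA4 at 1.28 ± 0.38. At an unadjusted p under 0.05 there were 5, and DESeq2 called 4, adding UBI4 (0.947), RPL40A (−0.712) and RPL40B (−0.775). At day 1 the count was 0 by edgeR (17% of all genes), also 0 at an unadjusted p under 0.05 and 0 by DESeq2. At day 3 it was 3 (31%) and at day 7 it was 5 (54.4%). DOA4 was at 0.56 ± 0.36 at day 1 (not called), and higher by 2.76 ± 0.38 at day 3 and 4.74 ± 0.42 at day 7 (26.7-fold, adjusted p = 3.22e-10, edgeR). Without euploid day 7 replicate 1 or 2 the day 7 value was 5.70 or 4.15. UBI4 was higher by 1.07 at day 3 and 2.90 ± 0.36 at day 7 (3.59 without euploid day 7 replicate 1), and UBP6 by 1.28 and 1.03. RPL40A (−1.32) and RPS31 (−1.02) were lower at day 7, while RPL40B was at 0.41 and UBA1 at −0.04, neither called. Per cell, DOA4 was above euploid at all 4 times (1.52, 1.61, 2.47 and 2.46) and UBI4 was higher in log phase (1.21), when 12.3% of all genes were higher. At day 1 all 7 genes were higher per cell, in place of 0, as were 75% of all genes: beside DOA4 these were UBI4 (1.59), UBP6 (1.17), UBA1 (1.13), RPL40A (0.96), RPL40B (0.92) and RPS31 (0.75). At day 3 DOA4 and UBP6 (0.99) were higher per cell, as were 12.5% of all genes, and UBI4 was at 0.78, not called. At day 7, when 84.6% of all genes were called per cell, most of them lower, RPL40A (−3.57), RPS31 (−3.29), UBA1 (−2.31), RPL40B (−1.86) and UBP6 (−1.24) were lower and UBI4 was at 0.62, not called. The log-phase call of DOA4 was lost without any single one of its 4 libraries (1.22 without YPS1009_Chr4 replicate 1, 1.34 without its replicate 2, 1.34 and 1.23 without euploid replicate 1 and 2). The day 3 call of UBI4 was lost without euploid day 3 replicate 2 (0.88) or YPS1009_Chr4 day 3 replicate 1 (0.79). At day 7 RPL40A was not called without YPS1009_Chr4 day 7 replicate 1 (−0.96), and RPS31 (−0.74) and UBP6 (0.77) were not called without its replicate 2.

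YPS1009_Chr14 and YPS1009_Chr15 each had 2 edgeR calls against YPS1009_euploid in these genes on the relative scale. In YPS1009_Chr14 edgeR called 0 of the 7 in log phase (5.01% of all genes) and 0 at day 1 (6.74%), with 0 at an unadjusted p under 0.05 and 0 by DESeq2 at both times. RPS31 was the gene called at day 3 (1.14 ± 0.31, 15.2% of all genes called) and at day 7 (1.02 ± 0.30, 16.3%). The day 3 call was lost without euploid replicate 1 (1.12) or 2 (1.14) or YPS1009_Chr14 replicate 1 (0.89), and the day 7 call without euploid replicate 2 (1.01) or YPS1009_Chr14 replicate 1 (0.91). In YPS1009_Chr15 UBI4 was the gene that edgeR called in log phase (15.1% of all genes called), at 1.95 ± 0.35 (3.87-fold, adjusted p = 0.000186, edgeR). Its levels were 135 and 141 CPM against 34.4 and 36.9. Without replicate 1 it was at 1.93. At an unadjusted p under 0.05 there were 3 genes in log phase, and DESeq2 called 3, adding RPL40A (−0.676) and RPL40B (−0.592). At day 1 edgeR called 0 of the 7 (4.69% of all genes), with 0 at an unadjusted p under 0.05 and 0 by DESeq2. At day 3 the single call was UBA1 (0.75, 28.9% of all genes called), which was lost without any of its 4 libraries (0.69 and 0.81 without YPS1009_Chr15 replicate 1 and 2, 0.69 and 0.81 without euploid replicate 1 and 2) and without all libraries of YPS1009_Chr15 replicate 1 (0.67, adjusted p = 0.147). At day 7 edgeR called 0 (29.9% of all genes), with 0 at an unadjusted p under 0.05 and 1 by DESeq2, UBA1.

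Per cell these strains had more calls. In YPS1009_Chr14, 4 of the 7 genes were higher at day 3 (RPS31 2.10, RPL40A 1.496, RPL40B 1.32 and UBA1 0.99), as were 56.9% of all genes, and 2 at day 7 (RPS31 1.25 and RPL40B 0.91), with 13.1% of all genes. In YPS1009_Chr15, UBI4 was higher (1.83) and RPL40A lower (−0.74) in log phase, when 19.2% of all genes were called. At day 3 UBA1 (1.38) and UBP6 (0.76) were higher, as were 38.7% of all genes.

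**Figure D4:**
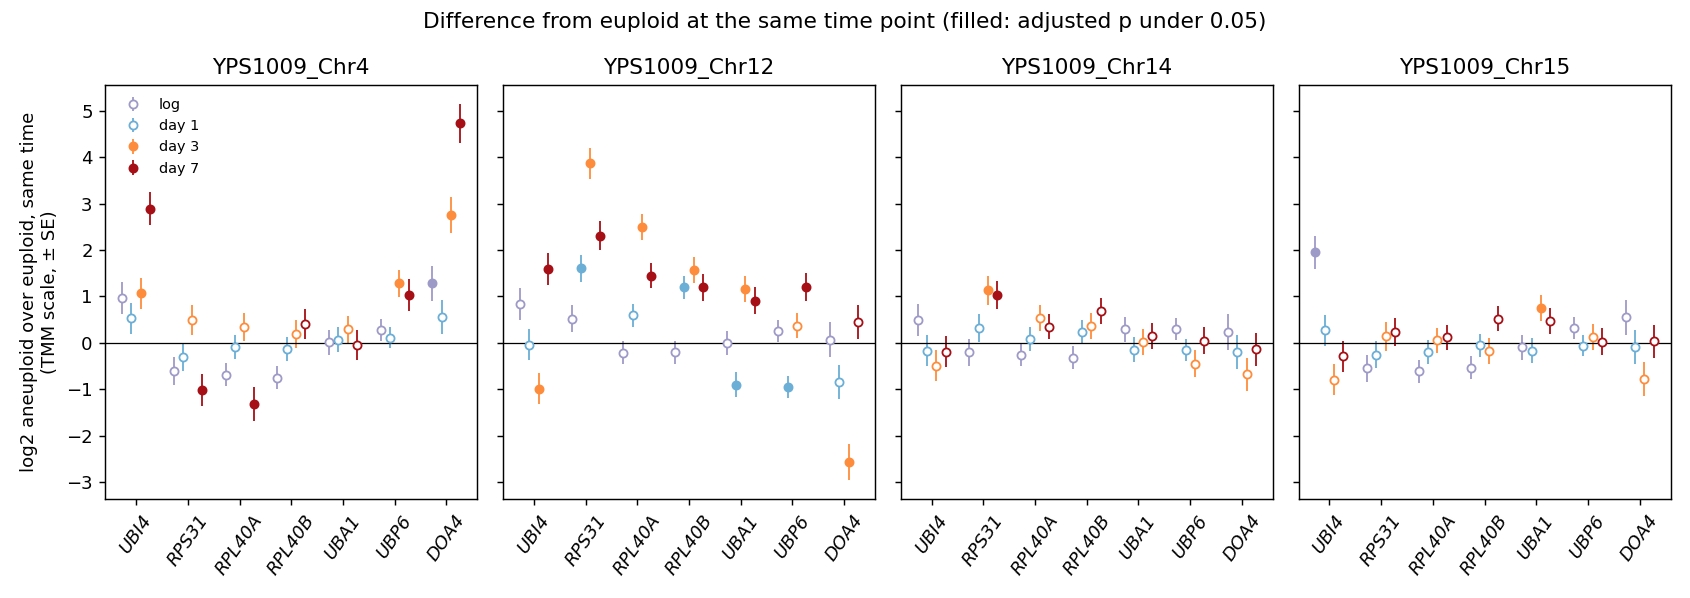
Log2 difference of each gene from YPS1009_euploid at the same time (vertical axis, TMM scale, bars are the SE) in the 4 aneuploid strains, with a colour for each time point and filled points for an adjusted p under 0.05 (edgeR, 2 libraries per group). The highest points are DOA4 in YPS1009_Chr4 at day 7 (4.74) and RPS31 in YPS1009_Chr12 at day 3 (3.87).

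The 3 genes that lie on a duplicated chromosome were set beside the other genes of that chromosome. Of the 12 values of UBI4 and RPS31 in YPS1009_Chr12 and DOA4 in YPS1009_Chr4, 7 were called higher than euploid. Over all genes 5.53%, 16.2%, 38.4% and 17.9% were called higher in YPS1009_Chr12 at the 4 successive times. In YPS1009_Chr4 these shares were 7.45%, 11.3%, 17.7% and 22.6%. Calls among the other genes of the duplicated chromosomes were not counted, so the 7 calls are not read as particular to these genes. The median of chromosome XII genes in YPS1009_Chr12 was 0.92, 0.97, 1.47 and 0.93 at the 4 successive times. RPS31 lay below that median in log phase (0.52) and above it later (1.60, 3.87 and 2.31), and UBI4 lay near it in log phase (0.84), below it at day 1 (−0.05) and day 3 (−0.99), and above it at day 7 (1.58). The median of chromosome IV genes in YPS1009_Chr4 was 0.81, 0.90, 0.92 and 0.43, against which DOA4 was at 1.28, 0.56, 2.76 and 4.74. The middle range of these chromosomes was wide in quiescence, from 0.06 to 3.20 (the quartiles of chromosome XII at day 3) and from −0.79 to 1.68 (those of chromosome IV at day 7).

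Whether the change from log phase itself differed from that of YPS1009_euploid was tested as a difference of differences, which passed in 18 of 84 tests, 12 higher and 6 lower. Over all genes 0.426% to 33.2% were called higher and 0.648% to 26.1% lower, depending on the comparison. YPS1009_Chr12 had 2 of the 7 genes at day 1 (16% of all genes called), 6 at day 3 (59.3%) and 3 at day 7 (18.1%). At day 3 the fusion genes fell less by 3.36 ± 0.43 (RPS31), 2.72 ± 0.37 (RPL40A) and 1.77 ± 0.37 (RPL40B), UBA1 fell less by 1.16, and UBI4 (−1.83) and DOA4 (−2.64) rose less. Per cell UBI4 (0.28, adjusted p = 0.613) and DOA4 (−0.53, adjusted p = 0.369) lost their calls at day 3, while RPS31 (5.47), RPL40A (4.83), RPL40B (3.88), UBA1 (3.27) and UBP6 (2.22) were higher, as were 73.9% of all genes. At day 7 the relative calls were RPL40A (1.66), RPL40B (1.40) and RPS31 (1.79), and per cell these lost their calls (RPL40A 0.12, RPL40B −0.15 and RPS31 0.24, adjusted p at least 0.611, edgeR). At day 1 RPL40B (1.73), RPS31 (1.42) and RPL40A (1.14) were higher per cell, as were 16.7% of all genes, and UBP6 lost its call (−0.88). YPS1009_Chr4 had 0 at day 1 by edgeR (3.39%), with 0 at an unadjusted p under 0.05 and 0 by DESeq2, 1 at day 3 (20%) and 3 at day 7 (40.9%), where DOA4 rose more by 3.46 ± 0.53 and UBI4 by 1.93 ± 0.48 (4.42 and 2.62 without euploid day 7 replicate 1). Per cell neither difference was called at day 7, with UBI4 at −0.59 and DOA4 at 0.94 (adjusted p = 0.0965, edgeR), while RPL40A (−3.12), RPS31 (−2.93), UBA1 (−2.57), UBP6 (−1.76) and RPL40B (−1.35) were lower, as were 81.9% of all genes. At day 1, 3 fusion gene differences were higher per cell (RPL40B 1.44, RPL40A 1.41 and RPS31 1.11, 44.5% of all genes higher). In YPS1009_Chr14 edgeR called 0 at day 1 (1.07%), 0 at day 3 (3.43%) and 0 at day 7 (4.35%). At an unadjusted p under 0.05 there were 0, 3 and 2, and by DESeq2 0, 1 and 2. Per cell 3 were higher at day 3 (RPS31 2.49, RPL40A 1.93 and RPL40B 1.82, 54.7% of all genes higher) and 2 at day 7 (RPS31 1.64 and RPL40B 1.41, 8.54%). In YPS1009_Chr15 the gene called at each day was UBI4, which rose less than in euploid, with differences of −1.68 ± 0.48 at day 1 (3.8% of all genes called), −2.74 ± 0.49 at day 3 (24.9%) and −2.25 ± 0.48 at day 7 (13.6%, −1.55 without euploid day 7 replicate 1). Per cell the UBI4 difference was also called lower, at day 1 (−1.84, 3.5% of all genes lower), day 3 (−1.99, 41.6% called) and day 7 (−2.35, 11.3% lower), and at day 3 UBA1 (1.60), RPS31 (1.44), RPL40A (1.42) and RPL40B (1.11) were higher. The log-phase level of UBI4 in YPS1009_Chr15, given earlier, enters all 3 of these values. Without replicate 1 of YPS1009_Chr15 the differences were −1.68 at day 1, −3.05 at day 3 and −2.31 at day 7. The day 1 value hardly moved, but its call was lost.

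Other genes of ubiquitin handling were read from 3 lists. Over all genes 30.5% to 34.7% were higher and 29.6% to 35% lower than log phase at day 1, 32.5% to 38.7% and 32.3% to 41.4% at day 3, and 33.3% to 38.8% and 38.2% to 42.5% at day 7, depending on the strain. Of 12 genes of ubiquitin-conjugating (E2) enzymes and their partners, 5 to 6 were higher and 1 to 2 lower than log phase at day 1, depending on the strain, 4 to 10 and 1 to 3 at day 3, and 8 to 10 and 1 to 3 at day 7, where the list's median lay between 1.19 and 2.66. Per cell 1 to 3 of the 12 were higher and 9 to 10 lower at each day. Over all genes 1.84% to 8.17% were higher per cell and 80.3% to 94.7% lower, depending on strain and day. The 2 genes that rose most were UBC8, the E2 of gluconeogenic enzyme turnover, with a median over strains of 4.62, 5.71 and 5.68, and UBC5, an E2 of short-lived and abnormal proteins, with 4.02, 5.53 and 5.47. UBC4, the near-identical partner of UBC5, fell (−2.45, −3.83 and −2.85). Each of the 3 was called in that direction in all 5 strains at all 3 times. UBC8 was also called higher per cell in 5 of 5 strains at each time (1.93, 1.35 and 1.40), and UBC5 per cell in 4 strains at day 1, 3 at day 3 and 1 at day 7, when it was lower in 1 other. RAD6 (−0.82 at day 1) and UBC1 (−0.28 at day 3, −0.71 at day 7) were the next lowest, called in 4, 2 and 4 strains.

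The 19 deubiquitinases other than UBP6 and DOA4 were split. At day 1, 7 to 11 were higher and 4 to 5 lower, at day 3, 7 to 11 and 4 to 6, and at day 7, 6 to 9 and 4 to 7. UBP15 (2.57 at day 1, 2.20 at day 3), UBP9 (1.68 at day 1, 2.74 at day 7) and OTU1 (3.44 at day 3, 3.02 at day 7) had the highest medians over the strains. OTU2 (−1.51, −2.21 and −2.56), UBP1 (−1.22 at day 1) and UBP11 (−1.84 at day 3, −1.29 at day 7) had the lowest. Late counts were low, with 1 and 3 of OTU2 and 5 and 5 of UBP11 in euploid at day 3. Over the strains UBP11 ranged from −2.12 to 0.378 at day 3 and OTU2 from −9.06 to −1.23 at day 7. Per cell 0 of the 19 were called higher by edgeR in any strain and 15 to 19 lower. Most genes were lower on that scale: 1.84% to 8.17% of all genes were higher and 80.3% to 94.7% lower. Of 16 partner genes, which are ubiquitin ligases, carriers and transcription factors, 4 to 7 were higher at day 1, 5 to 11 at day 3 and 6 to 11 at day 7, and 2 to 4 were lower at each day. The highest medians were those of MSN4, a stress transcription factor (2.72 at day 1, called in 4 strains), RPN4, the transcription factor of proteasome genes (1.73 at day 1, 3.43 at day 7), and the ubiquitin ligases HUL5 (2.50 at day 3, 2.41 at day 7) and UFD4 (2.44 at day 3). Per cell 0 to 1 of the 16 were higher and 14 to 16 lower, beside the same shares of all genes.

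RFU1, whose product inhibits Doa4, had the lowest median of the partners at each day (−2.62, −3.68 and −3.05). Next came RAD23, a carrier of ubiquitin-tagged proteins to the proteasome, at day 1 (−0.90, called in 5 strains), and DOA1, whose product maintains the free ubiquitin pool, at day 3 (−3.42) and day 7 (−2.91). At day 1 DOA1 was at 0.14 and called lower in 1 strain. DOA4 moved the other way on the relative scale, but per cell it was called higher in 0 of 15 comparisons and lower in 7. RFU1 held 415 and 306 counts in euploid log phase, 45 and 26 at day 1, 1 and 1 at day 3, and 6 and 31 at day 7. In YPS1009_Chr4 it held 163 and 216 in log phase and 0 in all 4 libraries of day 3 and day 7. In YPS1009_Chr12, which has an extra copy of RFU1 on chromosome XII, it held 699 and 501 in log phase, 122 and 112 at day 3, and 0 and 22 at day 7. DOA1 held 435 and 295 counts in euploid log phase, 3 and 6 at day 3, and 124 and 123 in YPS1009_Chr12 at day 3. Both were called lower than log phase in all 5 strains at day 3 and day 7. Over a further list of 135 genes, ribosomal protein genes taken by symbol plus RPP1 of RNase P, 130 to 134 were lower than log phase in each comparison, the direction of the 3 fusion genes.

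As a description, the genes whose pattern over the 20 group means was most like each of the 7 were sought among 3698 well-counted genes by Pearson's r on log2 levels. These means share libraries and depth, and no test was made. For RPS31, RPL40A and RPL40B all 9 were ribosomal protein genes, led by RPL6B (0.991), RPS26A (0.998) and RPL36A (0.989). For UBI4 they were ATG39, the receptor for autophagy of the nucleus (0.981), SNA2 (0.981) and RTS3 (0.98). For DOA4 they were STP1 (0.988), FRQ1 (0.988) and SND1 (0.987), for UBA1 the glycolytic gene PGK1 (0.953), ASH1 (0.946) and ARC40 (0.943), and for UBP6 GCR1 (0.914), MET17 (0.911) and BNA3 (0.897). STP1, FRQ1 and SND1 lie with DOA4 on chromosome IV. RPL6B, RPL37A and RPP0, the genes most like RPS31, lie with it on chromosome XII, as does ATG39 with UBI4. Shared copy number in YPS1009_Chr4 and YPS1009_Chr12 can therefore enter these r values, and its part was not tested. Among the 7 themselves, RPL40A and RPS31 were the most alike (0.979) and UBI4 and RPL40B the most opposed (−0.915).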

How the data were processed

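Libraries were made from rRNA-depleted total RNA with a stranded kit. Per the labels and the study's methods, reads were trimmed with Trimmomatic 0.39, mapped with BWA 0.7.12-r1039 to an S288c genome carrying YPS1009 SNPs and counted per gene with HTSeq 0.7.2. The release of that genome is not given in the sources used here, so coordinates and sequences are those of RefSeq R64, which matched 6025 of 6714 genes by systematic name. The authors deposited raw counts, not normalized. Shared 50-base stretches can lose or split reads of UBI4, RPL40A and RPL40B. Strain, time and replicate came from the labels.

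A gene was kept if 2 libraries or more held 10 counts or more of it. The 5864 genes kept were modelled in edgeR 4.0.16 (limma 3.58.1, R 4.3.3) by the quasi-likelihood method, with TMM scaling and 1 coefficient per strain and time point. SE is the absolute log2 change divided by the square root of F. The scale per cell was recovered as the median difference between the study's published spike-in-scaled log2 differences and the TMM-scaled ones, over 960 genes that excluded the 7, with at least 50 counts. The median absolute deviation was at most 0.0317. No published value is reported. Exact permutation tests were run in Python 3.11.15. Scripts were tested on simulated data. For euploid day 3 against log phase, the fit found 48% of simulated 2-fold changes and 100% of 4-fold changes, with 2.63% of calls false. Changes near 2-fold can therefore be missed. The simulation raised 100 genes by each fold and left the others level, with the same spread for all genes. In the data 80.1% of all genes were called in this comparison, so the share of false calls does not carry over to it.

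The 7 genes and the lists were chosen with earlier results of these data known. Named genes were all 7, the 3 most like each over the group means, and the 2 highest and 2 lowest of each list at each day. RFU1 and DOA1 counts were chosen for display after their values were seen. Alternatives were DESeq2 1.42.0 (size factors or the Wald test), total counts, the scale per cell, other count filters, a replicate block, separate fits, RPL40A and RPL40B summed, other definitions of the share, and leaving out each of the 40 libraries. The 4 libraries of YPS1009_Chr15 replicate 1 were left out as an alternative chosen after seeing the data. All columns of per-sample values were used. Depth limits the precision of low counts, and p-values cover the spread between libraries only.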

Additional observations from a re-analysis of the deposited data

Results flagged for a closer look

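The changes from log phase that differed from those of YPS1009_euploid by edgeR's test of the difference (adjusted p under 0.05, log2 scale, aneuploid minus euploid) were the following. In YPS1009_Chr12 they were UBP6 (−1.22) and RPL40B (1.40) at day 1, DOA4 (−2.64), RPL40A (2.72), UBA1 (1.16), RPL40B (1.77), UBI4 (−1.83) and RPS31 (3.36) at day 3, and RPL40A (1.66), RPL40B (1.40) and RPS31 (1.79) at day 7. At day 7 the calls of RPL40B (0.58) and RPS31 (0.83) were lost without YPS1009_Chr12 day 7 replicate 2. At day 1 that of RPL40B was lost without euploid day 1 replicate 2 (1.22), and that of UBP6 without the same library (−1.05), without euploid log-phase replicate 2 (−1.15) or without YPS1009_Chr12 day 1 replicate 2 (−1.17). Per cell the calls of UBP6 at day 1, DOA4 and UBI4 at day 3 and all 3 at day 7 were lost.

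In YPS1009_Chr4 they were DOA4 at day 3 (1.48) and DOA4 (3.46), RPL40B (1.16) and UBI4 (1.93) at day 7. The day 3 call was lost in 25 of 40 omissions of a library, its 8 own libraries included (1.32 to 1.65), and the RPL40B call without YPS1009_Chr4 log-phase replicate 2 (1.11) or day 7 replicate 2 (0.59). Per cell DOA4 (0.95 at day 3, 0.94 at day 7) and UBI4 (−0.59) were not called, and RPL40B was at −1.35, the opposite direction, while RPL40A at day 7 was at −0.63 relative to other transcripts and −3.12 per cell.

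In YPS1009_Chr15 UBI4 rose less than in euploid at day 1 (−1.68), day 3 (−2.74) and day 7 (−2.25). The day 1 call was lost in 26 of 40 omissions, its 8 own libraries included (−1.77 to −1.57). In data outside the main measurement, the log-phase library of YPS1009_Chr15 replicate 1 held 10626 counts of MF(ALPHA)1, against 3 in replicate 2 and 0 to 2 in log-phase libraries of the other strains. The part of this library in the results was not tested beyond leaving it out.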

How the results depend on the processing

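The p-values rest on 2 libraries per group, so small differences could be missed, and counting error was largest at day 7, where totals were lowest. On the scale per cell the calls against log phase that were higher numbered 7 in place of 32, and the differences of change 28 in place of 18. The differences of change numbered 35 by the DESeq2 Wald test and 29 when only the groups compared were fitted, which also gave 13 in place of 6 calls lower than euploid. Over 190 pairs of groups the replicate numbers showed little common pairing (median correlation of same-numbered deviations 0.0105, from −0.495 to 0.486). Pairing within each strain was not tested apart. In YPS1009_Chr15, genes of mating type alpha set replicate 1 apart at both log phase and day 1, so its number did link libraries. A replicate block, which fits a common effect for all strains, left 32 higher and 62 lower calls against log phase and 23 and 6 against euploid. Without single libraries these counts were 30 to 34, 61 to 65, 20 to 28 and 5 to 13, the differences of change 15 to 31 and the duplicated genes called 6 to 7. The highest of these, 12 to 13 calls lower than euploid and 28 to 31 differences, came without euploid day 7 replicate 1 or 2 or YPS1009_Chr12 day 7 replicate 1 or 2. The rises of the UBI4 share from log phase stayed within 60.9 to 62.1, 82.1 to 82.9 and 84.8 to 88.6 percentage points (exact permutation p at most 0.000257), and the aneuploid minus euploid differences within 1.31 to 1.83 in log phase, −5.89 to 0.293 at day 1, −14.7 to −8.22 at day 3 and −4.45 to 2.86 at day 7. Calls kept in all 40 omissions numbered 90 of 94 against log phase, 14 of 29 against euploid and 11 of 18 differences.

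The scale per cell, which by construction adds 1 shift to all genes of a comparison, turned these changes from log phase around. DOA4 was at −0.52, −0.83 and −0.53 in YPS1009_euploid at days 1, 3 and 7, at −1.10, −1.37 and −1.69 in YPS1009_Chr12, at −0.43 at day 1 in YPS1009_Chr4, at −0.75, −0.61 and −0.50 in YPS1009_Chr14 and at −1.33, −1.40 and −1.15 in YPS1009_Chr15. At day 1 UBP6 was at −2.11 in YPS1009_euploid, −1.46 in YPS1009_Chr4, −2.35 in YPS1009_Chr14 and −2.65 in YPS1009_Chr15, and UBA1 at −2.42, −1.55, −2.66 and −2.65 in the same strains. UBP6 in YPS1009_Chr4 at day 3 was at −5.69, and UBI4 in YPS1009_Chr15 at −0.048, −1.41 and −1.499. Against euploid, UBI4 in YPS1009_Chr12 at day 3 was at 1.03, and at day 7 DOA4 was at −1.19, UBP6 −0.43, RPL40A −0.19, UBA1 −0.73, RPL40B −0.44 and UBI4 −0.052. In YPS1009_Chr4 RPL40A was at 0.96, RPL40B 0.92 and RPS31 0.75 at day 1, and UBP6 at −1.24 and RPL40B at −1.86 at day 7. The differences of change were 0.28 for UBI4 at day 3 and −0.15 for RPL40B at day 7 in YPS1009_Chr12, and −1.76 for UBP6, −1.35 for RPL40B and −0.59 for UBI4 at day 7 in YPS1009_Chr4.

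Scaling to total counts alone reversed 8 values, all of YPS1009_Chr4: UBP6 at day 3 against log phase (−1.16), UBP6 (−0.89) and RPL40B (−1.52) at day 7 against euploid, and the differences of change of UBA1 (−0.84) and UBI4 (−1.04) at day 3 and of UBP6 (−1.46), RPL40B (−1.06) and UBI4 (−0.11) at day 7. Keeping only genes with 10 counts or more in each library reversed 3: UBP6 in YPS1009_Chr4 at day 3 (−1.58), UBA1 in YPS1009_Chr14 at day 1 (−0.47) and UBI4 in YPS1009_Chr12 at day 3 against euploid (0.018). Scaling to total counts leaves out the TMM factors. In YPS1009_Chr4 these were 0.420 and 0.536 at day 3 and 0.316 and 0.381 at day 7. In YPS1009_euploid they were 0.795 and 0.903 at day 3 and 0.944 and 1.62 at day 7. The cause was not tested for the 11 reversed values. DESeq2 size factors, the DESeq2 Wald test, no filter, the replicate block, separate fits, RPL40A and RPL40B summed and the omission of YPS1009_Chr15 replicate 1 reversed 0 values.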
